A study of Mus musculus with 12 samples.

Results

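The mRNAs of 10 alpha and beta tubulin genes were followed in mouse ear fibroblasts cultured on gels that differ in stiffness and in stress relaxation. The members were chosen by name among the genes of the tubulin heterodimer with mRNA in these cells: 4 alpha tubulin genes (Tuba1a, Tuba1b, Tuba1c and Tuba4a) and 6 beta tubulin genes (Tubb2a, Tubb2b, Tubb3, Tubb4b, Tubb5 and Tubb6). They are 10 of the 33246 genes listed, and all 10 passed the expression filter that left 14542 genes for testing. The cells came from the ears of 1-month-old mice and were grown in medium with 10% serum and used at passage 2. The study took ear fibroblasts from C57BL/6 mice of both sexes and from Tau-EGFP reporter mice, and the sources used here do not say which of them gave this RNA or whether animals were pooled. For RNA-seq, 500000 cells were seeded for 48 h on alginate gels with an initial modulus of 2 or 20 kPa, in 4 groups of 3 biological replicates: 2-kPa elastic, 20-kPa elastic, 2-kPa viscoelastic and 20-kPa viscoelastic. Elastic gels were crosslinked covalently and hold a stress, whereas viscoelastic gels were crosslinked with calcium ions and relax it slowly. Stress relaxation and the type of crosslink therefore change together and cannot be told apart, and there is no group on plastic or glass. Stiffness was set by the concentration of the crosslinker in both gel types, so these cannot be told apart either.

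Microtubules are hollow tubes of alpha and beta tubulin heterodimers that grow and shrink at their ends, carry cargo, form the mitotic spindle and share the load of contractile actin in adherent cells. Alpha and beta tubulin are each encoded by several genes, and their proteins differ mostly in an acidic tail at the carboxyl end, where enzymes remove or add tyrosine and glutamate. Cells also hold the amount of tubulin mRNA in balance: when free heterodimer is abundant, ribosomes that have just made the first few amino acids of a tubulin chain are recognised and the mRNA is degraded.

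The coding sequences show where the isotypes differ and where they do not. The last 60 coding bases before the stop codon, which encode most of the tail, are printed here from GENCODE vM21 transcripts (genome build GRCm38/mm10), 5′ to 3′ on the coding strand, with the last codon in capitals. They are shown for Tuba4a and for 5 beta genes.
Tuba4a: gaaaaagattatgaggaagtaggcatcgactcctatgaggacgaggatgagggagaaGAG
Tubb2a: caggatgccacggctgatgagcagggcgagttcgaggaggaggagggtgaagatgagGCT
Tubb2b: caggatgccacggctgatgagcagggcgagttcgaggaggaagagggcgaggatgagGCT
Tubb3: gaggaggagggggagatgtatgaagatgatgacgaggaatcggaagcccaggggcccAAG
Tubb4b: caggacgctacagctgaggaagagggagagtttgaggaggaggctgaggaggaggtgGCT
Tubb5: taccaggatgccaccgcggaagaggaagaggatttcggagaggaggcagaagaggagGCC
Tuba4a ended in a glutamate codon, so its protein is made without the terminal tyrosine. Tubb2a and Tubb2b differed in 3 of these 60 bases. Tubb3 differed from Tubb2a in 36 of them and ended in a lysine codon, and Tubb2a, Tubb2b, Tubb4b and Tubb5 ended in an alanine codon. The first 30 coding bases are shown for an alpha gene and for 3 beta genes. In capitals are the first 4 codons, which encode the amino acids recognised in autoregulation.
Tuba1a: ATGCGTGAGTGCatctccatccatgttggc
Tubb2b: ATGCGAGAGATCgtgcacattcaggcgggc
Tubb4b: ATGAGGGAGATCgtgcacctgcaggctggg
Tubb5: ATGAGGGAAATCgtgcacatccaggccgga
All 4 alpha genes began with codons for methionine, arginine, glutamate and cysteine, and the beta genes had isoleucine in place of cysteine. Among the 3 beta genes shown, the codons differed while the encoded residues did not.

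The members lie on 7 chromosomes. Tuba1b (chr15:98931425-98934565, minus strand), Tuba1a (chr15:98949837-98953703, minus strand) and Tuba1c (chr15:99029891-99038110, plus strand) are neighbours, as are Tubb2a (chr13:34074274-34078007, minus strand) and Tubb2b (chr13:34126748-34130466, minus strand). Tuba4a is at chr1:75214228-75219865 (minus strand), Tubb3 at chr8:123411424-123422015 (plus strand), Tubb4b at chr2:25222160-25224702 (minus strand), Tubb5 at chr17:35833921-35838306 (minus strand) and Tubb6 at chr18:67390717-67402749 (plus strand). Reads were counted over the exons of each gene, and the transcript used here for each member has 4 exons. The coding sequences of Tuba1a and Tuba1b were 98.3% identical, those of Tubb2a and Tubb2b 96.5%, and those of Tuba4a and the Tuba1 genes 84.8% to 85.2%.

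Because reads are assigned to genes by sequence, the share of each transcript that also occurs in other genes bears on how separately the isotypes were counted. Of all 50-base stretches of the transcript, 83.1% were also found in transcripts of other genes for Tuba1b, 75.5% for Tuba1a and 61.0% for Tuba1c. This share was 49.6% for Tubb2a and 39.3% for Tubb2b, each mostly in the other. For Tubb4b it was 55.5%, in annotated pseudogenes, and the pseudogenes Tubb4b-ps1 and Tubb4b-ps2 had at most 11 and 4 counts in a sample. Tubb3 and Tubb6 shared none, and Tubb5 0.12%. Tuba4a shared 48.8%, nearly all of it with the kinase gene Stk16, which lies on the opposite strand and covers 37.3% of the exonic bases of Tuba4a. Stk16 had 28.1 to 32.5 counts scaled to the library total (CPM). The authors' handling of reads that map to several genes and of strand is not given in the sources used here, so the values of Tuba1a, Tuba1b, Tuba1c, Tubb2a, Tubb2b, Tubb4b and Tuba4a are uncertain in how reads were split, whereas those of Tubb3, Tubb5 and Tubb6 rest on sequence that is nearly or wholly their own.

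**Figure D1:**
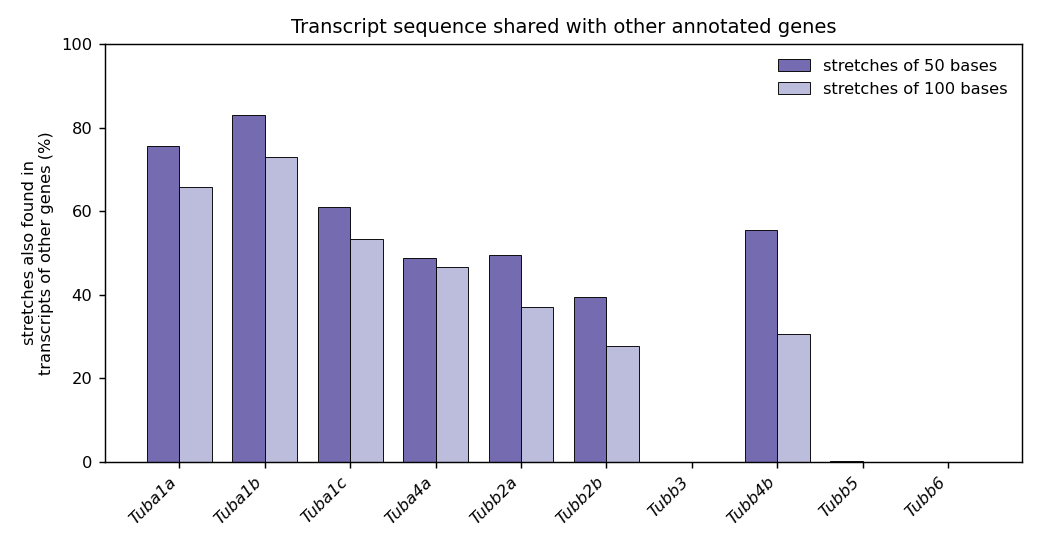
For each tubulin gene (horizontal axis), the bars give the percentage of all stretches of 50 bases (dark) or 100 bases (light) of its transcript that also occur in an annotated transcript of another gene, on either strand. Tuba1b has the highest bars (83.1% and 73.0%), and Tubb3, Tubb5 and Tubb6 have bars at or close to 0.

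The totals of assigned reads ran from 36626221 to 43612804, and every member had at least 305 counts in each sample, the lowest being in Tubb3 and the next in Tuba4a (546). Levels between genes are compared as CPM per kb of exon, averaged over the 12 samples. Tubb5, the main beta tubulin of dividing cells, had the highest level at 257 ± 24.7 (SD, n = 12) CPM per kb. Tuba1a, the leading alpha isotype of developing neurons, followed at 108 ± 15.4 CPM per kb. Tubb2a at 74.2 CPM per kb and Tubb4b at 69.8 CPM per kb overlapped, with Tubb2a above in 8 of 12 samples. Tubb6 came next at 48.0 CPM per kb and was below Tubb4b in 12 of 12 samples, although their ranges overlapped. Tuba1b, the widely expressed alpha isotype, had 30.8, Tuba1c 19.7 and Tubb2b 11.3 CPM per kb, and the ranges of these genes did not overlap. Tubb3, the class III beta tubulin used as a marker of neurons, and Tuba4a were lowest at 5.66 and 4.78 CPM per kb, with overlapping ranges and Tubb3 above in 11 of 12 samples. The order within the Tuba1 genes carries the uncertainty of their shared sequence.

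**Figure D2:**
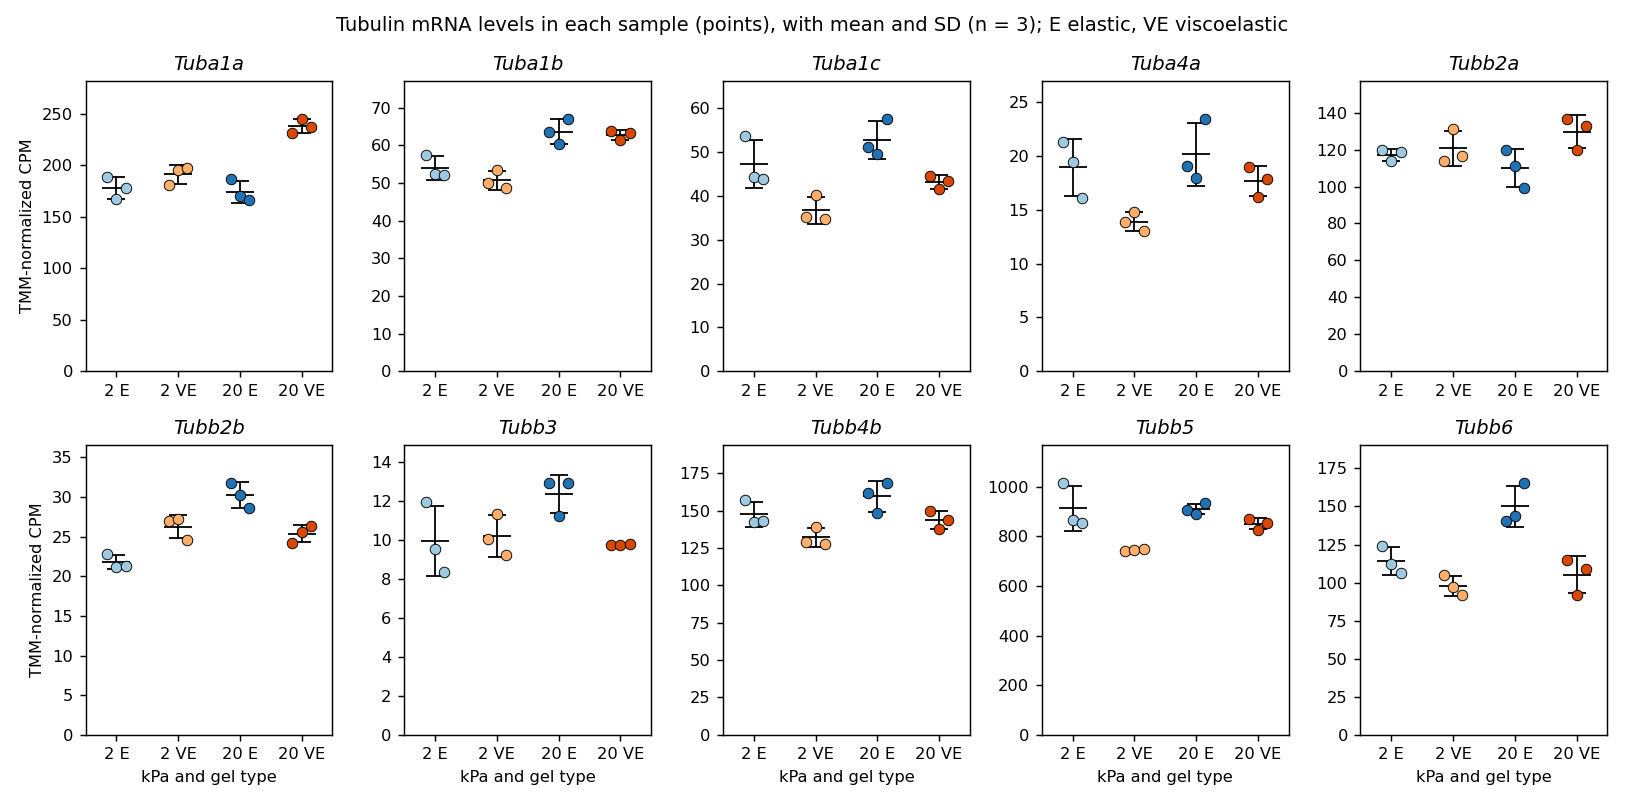
TMM-normalized CPM of each tubulin gene (vertical axes, from 0) in the 12 samples by stiffness in kPa and gel type (E elastic, VE viscoelastic). Points are samples and bars the mean and SD of 3 replicates. Tuba1a stands at 231 to 245 CPM on 20-kPa viscoelastic gels, above every other sample, and Tubb6 at 141 to 166 CPM on 20-kPa elastic gels, above every other sample.

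The comparison of viscoelastic with elastic gels asks whether stress relaxation goes with other tubulin mRNA levels at each stiffness. Isotypes moved in both directions: on viscoelastic gels Tuba1a and Tubb2a rose at 20 kPa, Tuba1c fell at both stiffnesses, Tubb6 and Tubb3 fell at 20 kPa, Tuba4a and Tubb5 fell at 2 kPa, and Tubb2b rose at 2 kPa and fell at 20 kPa. At 2 kPa, edgeR's quasi-likelihood test with Benjamini-Hochberg (BH) adjustment over all tested genes called 1 member higher and 3 lower, where 19.9% of all tested genes were called, 8.77% higher and 11.1% lower. At 20 kPa it called 2 members higher and 4 lower, where 33.5% of all tested genes were called, 17.4% higher and 16.1% lower. The replicates of the gel types did not overlap for 6 of 10 members at 2 kPa and 7 of 10 at 20 kPa, against 36.3% and 49.9% of all tested genes. The median log2 fold change of the members was −0.13 at 2 kPa and −0.17 at 20 kPa, against −0.00 and 0.02 over all tested genes. The members lie between the 10.3 and 41.2 percentiles of exonic length among tested genes. Averaged over both stiffnesses, 1 member was higher and 5 were lower, where 40.0% of all tested genes were called, 19.6% higher and 20.4% lower. The RNA was taken from whole cultures, so fewer cells of a type and less RNA per cell cannot be told apart.

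Tuba1a had 187, 170.2 and 166 CPM on 20-kPa elastic gels and 231, 245 and 238 CPM on 20-kPa viscoelastic gels. On 2-kPa gels it had 189, 168 and 178 CPM when elastic and 181, 196 and 197 CPM when viscoelastic. The groups were apart at 20 kPa and overlapped at 2 kPa. At 20 kPa Tuba1a was 1.37-fold higher on viscoelastic gels (log2 fold change 0.45, SE 0.06, edgeR adjusted p = 0.000221) and stayed called without any 1 of the 12 samples, with values of 0.42 to 0.49. At 2 kPa the log2 fold change was 0.10 (95% interval −0.04 to 0.24, adjusted p = 0.287). The mean of both was 0.28 (SE 0.05, adjusted p = 0.000339). Tuba1a lies at the 12.9 percentile of exonic length among tested genes. The 2866 shortest genes, as a class, had a median log2 fold change of 0.17 at 20 kPa and 0.10 at 2 kPa.

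Tuba1b, its neighbour with the nearly identical coding sequence, had 57.5, 52.3 and 52.0 CPM on 2-kPa elastic and 49.96, 53.5 and 48.6 CPM on 2-kPa viscoelastic gels. At 20 kPa it had 63.6, 60.3 and 67.0 CPM on elastic and 63.7, 61.3 and 63.4 CPM on viscoelastic gels. The gel types overlapped at both stiffnesses. The log2 fold changes were −0.09 (95% interval −0.22 to 0.04, edgeR adjusted p = 0.313) and −0.02 (−0.15 to 0.11, adjusted p = 0.830). An offset for gene length and GC content moved the mean of both from −0.06 (adjusted p = 0.325) to −0.13 (adjusted p = 0.0194).

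Tuba1c had 53.7, 44.4 and 43.8 CPM on 2-kPa elastic and 35.2, 40.2 and 34.7 CPM on 2-kPa viscoelastic gels. On the 20-kPa gels it had 51.2, 49.5 and 57.6 CPM on elastic and 44.6, 41.5 and 43.4 CPM on viscoelastic gels. Elastic samples lay above viscoelastic ones at each stiffness. Tuba1c fell 1.29-fold at 2 kPa (log2 fold change −0.37, SE 0.09, edgeR adjusted p = 0.00781) and 1.22-fold at 20 kPa (−0.29, SE 0.08, adjusted p = 0.0167). The call at 20 kPa was lost without 20-kPa elastic replicate 3 (−0.22, adjusted p = 0.0886) and without 20-kPa viscoelastic replicate 2 (−0.26, adjusted p = 0.0594).

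Tuba4a, the alpha isotype that lacks the encoded terminal tyrosine, had 21.3, 19.5 and 16.1 CPM on 2-kPa elastic and 13.9, 14.8 and 13.03 CPM on 2-kPa viscoelastic gels. The 20-kPa values were 19.0, 17.9 and 23.4 CPM on elastic and 19.0, 16.2 and 17.9 CPM on viscoelastic gels. The gel types were apart at 2 kPa and overlapped at 20 kPa. Tuba4a fell 1.37-fold at 2 kPa (log2 fold change −0.45, SE 0.11, edgeR adjusted p = 0.0119), and the value at 20 kPa was −0.19 (95% interval −0.42 to 0.05, adjusted p = 0.208). The call at 2 kPa was lost without 2-kPa elastic replicate 1 (−0.36, adjusted p = 0.0731) and without 2-kPa viscoelastic replicate 3 (−0.40, adjusted p = 0.0531).

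Tubb5 had 1018, 866 and 855 CPM on 2-kPa elastic and 742, 745 and 748 CPM on 2-kPa viscoelastic gels. At 20 kPa it had 908, 891 and 933 CPM on elastic and 871, 827 and 855 CPM on viscoelastic gels. Every viscoelastic sample lay below the elastic samples of its stiffness, and the 2-kPa viscoelastic samples lay no farther apart than counting alone would place them. Tubb5 fell 1.22-fold at 2 kPa (log2 fold change −0.29, SE 0.07, edgeR adjusted p = 0.00969), and the value at 20 kPa was −0.10 (95% interval −0.25 to 0.05, adjusted p = 0.307). The highest sample, 2-kPa elastic replicate 1, carried part of the difference: without it the value at 2 kPa was −0.21 with an adjusted p of 0.0621. The mean of both stiffnesses was −0.20 (SE 0.05, adjusted p = 0.00636).

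Tubb6, a beta isotype of non-neuronal cells, had 124, 112 and 106 CPM on 2-kPa elastic and 105, 97.3 and 91.8 CPM on 2-kPa viscoelastic gels. On the 20-kPa gels it had 141, 144 and 166 CPM on elastic and 115, 91.9 and 109 CPM on viscoelastic gels. The gel types did not overlap at either stiffness. Tubb6 fell 1.43-fold at 20 kPa (log2 fold change −0.51, SE 0.09, edgeR adjusted p = 0.000738), which held without any 1 sample, at −0.58 to −0.42. At 2 kPa the value was −0.22 (95% interval −0.41 to −0.03) and did not pass after adjustment over all genes (adjusted p = 0.0945).

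Tubb2b had 22.8, 21.2 and 21.3 CPM on 2-kPa elastic and 27.0, 27.2 and 24.6 CPM on 2-kPa viscoelastic gels. The 20-kPa values were 31.8, 30.2 and 28.6 CPM on elastic and 24.2, 25.5 and 26.3 CPM on viscoelastic gels. The viscoelastic samples were all above the elastic ones at 2 kPa and all below them at 20 kPa. Tubb2b rose 1.21-fold at 2 kPa (log2 fold change 0.27, SE 0.07, edgeR adjusted p = 0.00934) and fell 1.19-fold at 20 kPa (−0.25, SE 0.06, adjusted p = 0.00757), and neither call was lost without any 1 sample. With the offset for length and GC content the rise at 2 kPa was 0.18 (adjusted p = 0.0581). Its near copy Tubb2a had 119.5, 111 and 99.4 CPM on 20-kPa elastic and 137, 119.5 and 133 CPM on 20-kPa viscoelastic gels. The 2-kPa groups of Tubb2a spanned 114 to 119.7 CPM when elastic and 114 to 131 CPM when viscoelastic. Tubb2a rose 1.18-fold at 20 kPa, where the highest elastic and the lowest viscoelastic sample nearly met (log2 fold change 0.24, SE 0.08, adjusted p = 0.0270). That call was lost with the offset (0.13, adjusted p = 0.174) and in 4 of the 12 fits without 1 sample: without 20-kPa elastic replicate 2 or 3 and without 20-kPa viscoelastic replicate 1 or 3, at 0.17 to 0.24 with adjusted p of 0.0624 to 0.135.

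Tubb4b, a beta isotype of most cells and of cilia, had 157, 142 and 143 CPM on 2-kPa elastic and 129, 139 and 128 CPM on 2-kPa viscoelastic gels. At 20 kPa it had 162, 148 and 169 CPM on elastic and 149.6, 138 and 143 CPM on viscoelastic gels. The gel types were apart at 2 kPa and overlapped at 20 kPa. Its log2 fold changes were −0.16 (edgeR adjusted p = 0.0971) and −0.15 (adjusted p = 0.0838), and their mean of −0.16 (SE 0.05) was called (adjusted p = 0.0143). With the offset for length and GC content Tubb4b was called at each stiffness, at −0.22 (adjusted p = 0.0251) and −0.24 (adjusted p = 0.00856).

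Tubb3 had 11.9, 9.55 and 8.37 CPM on 2-kPa elastic and 10.0, 11.3 and 9.21 CPM on 2-kPa viscoelastic gels. On the 20-kPa gels it had 12.9, 11.2 and 12.9 CPM on elastic and 9.76, 9.75 and 9.78 CPM on viscoelastic gels. The gel types overlapped at 2 kPa and were apart at 20 kPa. Tubb3 fell 1.27-fold at 20 kPa (log2 fold change −0.34, SE 0.11, edgeR adjusted p = 0.0319), and at 2 kPa the value was 0.03 (95% interval −0.22 to 0.28, adjusted p = 0.879). The call at 20 kPa was lost in 5 of the 12 fits without 1 sample, namely without 20-kPa elastic replicate 1 or 3 and without each 20-kPa viscoelastic replicate, at −0.34 to −0.31 with adjusted p of 0.0709 to 0.102. The 20-kPa viscoelastic replicates of Tubb3, with 390 to 417 counts, lay closer together than counting alone would place them, so their spread understates the error. Tubb3 is used as a neuronal marker, and the 10 neuron markers summed to 11.5 to 16.3 CPM. Map2 gave 10.4 to 15.3 CPM of that sum, a level of the same order as Tubb3, and was lower on viscoelastic gels at both stiffnesses, without overlap. The neuron list did not follow Map2. The median log2 fold change of its 4 tested genes was 0.18 at 2 kPa and 0.60 at 20 kPa, although 0 were called higher. Rbfox3 had at most 2 counts and Snap25 at most 3 in any sample. The part of such cells in the result was not tested.

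**Figure D3:**
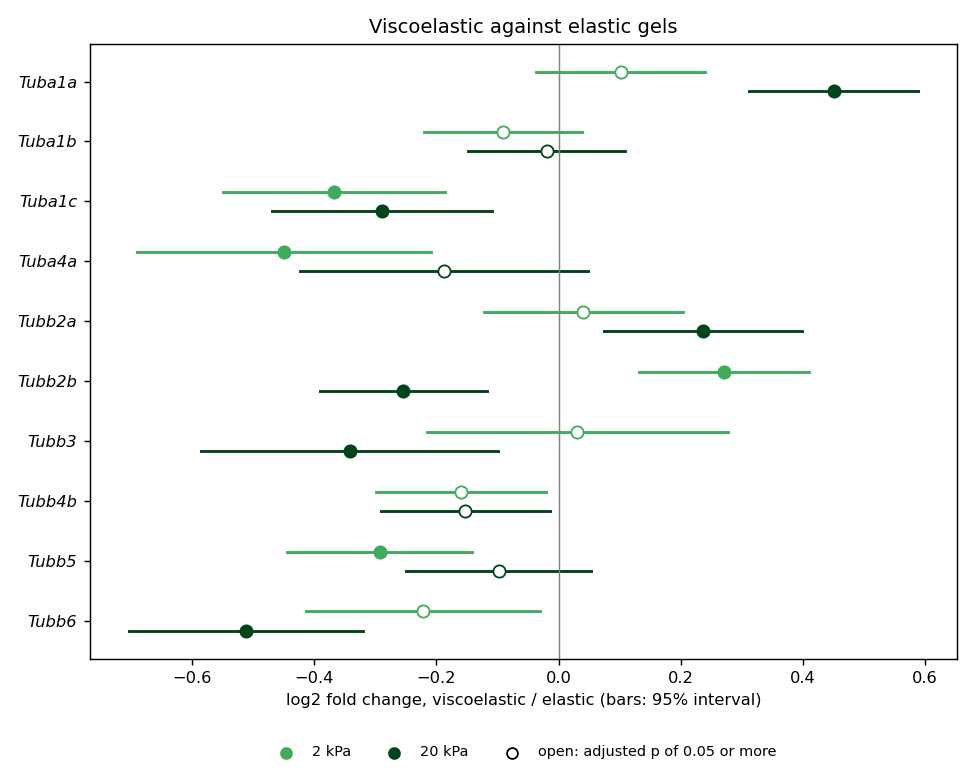
log2 fold change of each tubulin gene on viscoelastic against elastic gels (horizontal axis) at 2 kPa (light) and 20 kPa (dark), with 95% intervals. Filled points have an adjusted p under 0.05. Tubb2b has filled points on both sides of 0 (0.27 and −0.25), Tuba1a and Tubb6 lie farthest apart at 20 kPa (0.45 and −0.51).

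Proliferation genes moved in the direction of several of these isotypes. The 10 proliferation markers, among them Mki67 and Top2a, summed to 1317 to 1412 CPM on 2-kPa elastic, 985 to 1107 CPM on 2-kPa viscoelastic, 1605 to 1859 CPM on 20-kPa elastic and 877 to 1164 CPM on 20-kPa viscoelastic gels. On viscoelastic gels 7 of 10 were lower at 2 kPa and 10 of 10 at 20 kPa (edgeR, BH adjustment), where 11.1% and 16.1% of all tested genes were lower. The sums were lower on viscoelastic gels at both stiffnesses, as Tuba1c was. They were highest on 20-kPa elastic gels, as Tubb6 was, and Tubb6 was called lower at 20 kPa alone. Tubb5 was called lower at 2 kPa but not at 20 kPa (log2 fold change −0.10, edgeR adjusted p = 0.307). Between stiffnesses on elastic gels 6 of 10 markers were called higher, where 6.81% of all tested genes were. Tubb5 had −0.0034 there (adjusted p = 0.982). Tuba1a did not share the order of the sums, with its highest level on 20-kPa viscoelastic gels. The paper measured proliferation by EdU labelling at the same time after seeding. It reports more proliferation on viscoelastic than on elastic gels when soft, and no significant difference on the stiffest gels. On elastic gels it reports an increase with stiffness, the direction of the markers there. The lower marker mRNAs on viscoelastic gels therefore cannot be read as less cell division. The part of proliferation in the tubulin results was not tested.

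The comparison of 20-kPa with 2-kPa gels asks whether stiffness, set by the crosslinker concentration, goes with tubulin mRNA levels, and whether it does so on both kinds of gel. All members called between stiffnesses were higher at 20 kPa: Tuba1b on both gel types, Tubb2b and Tubb6 on elastic gels, and Tuba1a on viscoelastic gels. On elastic gels 3 members were called higher and 0 lower, where 14.0% of all tested genes were called, 6.81% higher and 7.14% lower. On viscoelastic gels 2 members were called higher and 0 lower, where 2.28% of all tested genes were called, 1.58% higher and 0.695% lower. The 2 stiffnesses did not overlap for 3 of 10 members on elastic and 5 of 10 on viscoelastic gels, against 35.6% and 22.3% of all tested genes. The median log2 fold change of the members was 0.14 on elastic and 0.16 on viscoelastic gels, against −0.01 and 0.01 over all tested genes. The gel-type and stiffness comparisons share samples and are not independent.

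Tuba1b, with 52.0 to 57.5 CPM at 2 kPa and 60.3 to 67.0 CPM at 20 kPa on elastic gels, was 1.18-fold higher on the stiffer gel (log2 fold change 0.24, SE 0.06, edgeR adjusted p = 0.0169). On viscoelastic gels it had 48.6 to 53.5 CPM at 2 kPa and 61.3 to 63.7 CPM at 20 kPa and was 1.24-fold higher (0.31, SE 0.06, adjusted p = 0.0232). It was the 1 member whose 6 samples at 20 kPa all lay above the 6 at 2 kPa, a separation seen in 1.53% of all tested genes, and the mean of both gel types was 0.27 (SE 0.04, adjusted p = 0.00314). That mean held without any 1 sample, at 0.25 to 0.30. The call on elastic gels was lost without 2-kPa elastic replicate 2 or 3 or 20-kPa elastic replicate 3 (0.20 to 0.22, adjusted p of 0.0706 to 0.0852), and that on viscoelastic gels without 2-kPa viscoelastic replicate 1 or 3 or 20-kPa viscoelastic replicate 1 or 3 (0.28 to 0.30, adjusted p of 0.0526 to 0.108). It was also lost when only the 6 viscoelastic samples were fitted (0.29, adjusted p = 0.0880).

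Tubb2b on elastic gels was 1.39-fold higher at 20 kPa (log2 fold change 0.47, SE 0.06, edgeR adjusted p = 0.000316), with values of 0.45 to 0.51 without any 1 sample. On viscoelastic gels its value was −0.05 (95% interval −0.19 to 0.09, adjusted p = 0.715). Tubb6 on elastic gels was 1.31-fold higher at 20 kPa (0.39, SE 0.09, adjusted p = 0.00932), a call lost without 20-kPa elastic replicate 3, its highest sample (0.32, adjusted p = 0.0527). On viscoelastic gels the value of Tubb6 was 0.10 (95% interval −0.09 to 0.30, adjusted p = 0.570).

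Tuba1a on viscoelastic gels was 1.24-fold higher at 20 kPa (log2 fold change 0.32, SE 0.06, edgeR adjusted p = 0.0270), whereas on elastic gels its value was −0.03 (95% interval −0.17 to 0.11, adjusted p = 0.786). The 20-kPa viscoelastic samples of Tuba1a all lay above the 2-kPa ones. The call was lost when only the 6 viscoelastic samples entered the fit (0.30, adjusted p = 0.104), without 2-kPa viscoelastic replicate 1 and without each 20-kPa viscoelastic replicate (0.28 to 0.34, adjusted p of 0.0537 to 0.112). Tuba4a had the highest value on viscoelastic gels, 0.35 (SE 0.11), with 13.03 to 14.8 CPM at 2 kPa and 16.2 to 19.0 CPM at 20 kPa, and did not pass (adjusted p = 0.113) although its groups did not overlap. Tubb5, Tubb4b and Tuba1c had values of 0.19, 0.12 and 0.23 there that did not pass either (adjusted p = 0.155, 0.335 and 0.149). Averaged over gel types, Tuba1b, Tubb2b and Tubb6 were called higher, where 10.1% of all tested genes were called, 6.02% higher and 4.11% lower. The mean for Tubb6 was 0.25 (adjusted p = 0.0240) and was lost in 6 of the 12 fits without 1 sample, namely without 2-kPa elastic replicate 2 or 3, 2-kPa viscoelastic replicate 3, 20-kPa elastic replicate 3 and 20-kPa viscoelastic replicate 1 or 3 (0.21 to 0.24, adjusted p of 0.0580 to 0.0669).

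**Figure D4:**
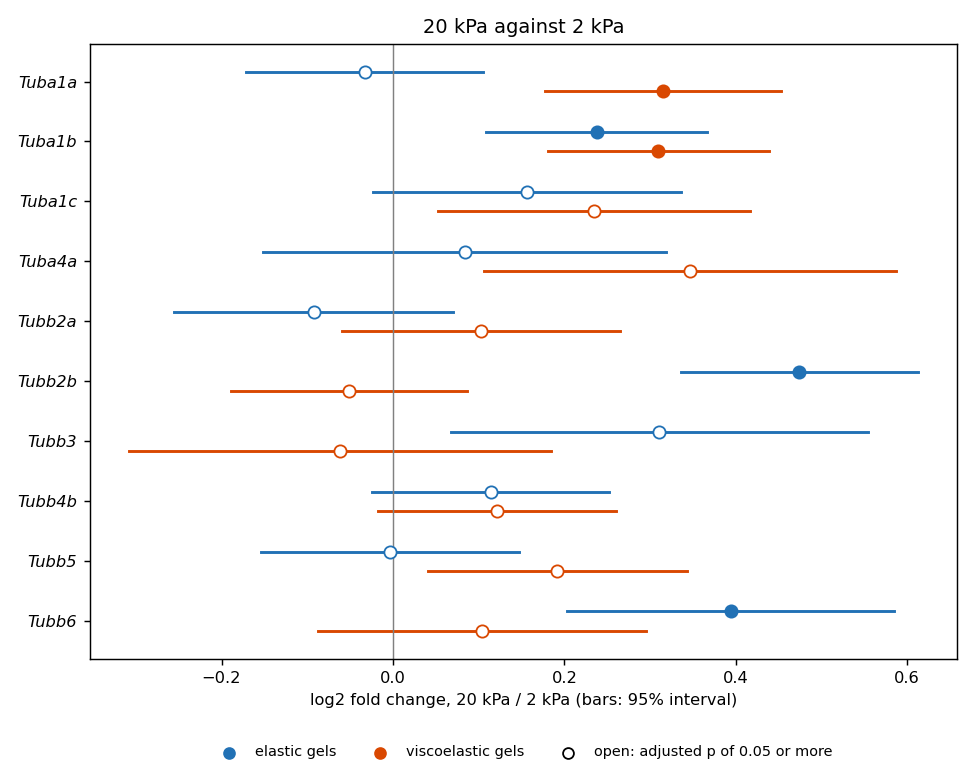
log2 fold change of each tubulin gene at 20 against 2 kPa (horizontal axis) on elastic gels (blue) and viscoelastic gels (orange), with 95% intervals. Filled points have an adjusted p under 0.05. Tubb2b on elastic gels has the highest value (0.47), and Tuba1b has filled points on both gel types (0.24 and 0.31).

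The interaction tests whether the effect of viscoelasticity differed between stiffnesses, taken as the log2 fold change at 20 kPa minus that at 2 kPa. It was called for 2 members, 1 higher and 1 lower, where 7.56% of all tested genes were called, 4.45% higher and 3.12% lower. For Tubb2b it was −0.53 (SE 0.09, edgeR adjusted p = 0.00269), between −0.57 and −0.49 without any 1 sample. For Tuba1a it was 0.35 (SE 0.09, adjusted p = 0.0316), and that call was lost in 8 of the 12 fits without 1 sample, at 0.30 to 0.37 with adjusted p of 0.0510 to 0.0914. These were the fits without 2-kPa elastic replicate 1 or 3, 2-kPa viscoelastic replicate 1, 20-kPa elastic replicate 2 or 3 and each 20-kPa viscoelastic replicate. The effects on Tubb3 (−0.37, adjusted p = 0.187), Tubb6 (−0.29, adjusted p = 0.188), Tuba4a (0.26, adjusted p = 0.355) and Tubb5 (0.19, adjusted p = 0.270) were not shown to differ between stiffnesses, although each was called at 1 stiffness alone.

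Summed per length, the alpha genes stood at 154 ± 10.1 (SD, n = 3) CPM per kb on 2-kPa elastic, 153 ± 6.395 on 2-kPa viscoelastic, 159 ± 6.02 on 20-kPa elastic and 189 ± 2.20 CPM per kb on 20-kPa viscoelastic gels. The 20-kPa viscoelastic samples lay above all others. The beta genes summed to 479.5 ± 37.5, 419 ± 9.51, 499.9 ± 12.4 and 465 ± 19.8 CPM per kb in the same order, lowest on 2-kPa viscoelastic gels. Within the alpha sum, the share of Tuba1a was 64.5% ± 1.20 on 2-kPa elastic, 69.4% ± 1.43 on 2-kPa viscoelastic, 60.7% ± 2.61 on 20-kPa elastic and 69.8% ± 1.25 on 20-kPa viscoelastic gels. The share of Tuba1c was 13.5% and 14.5% on elastic and 10.5% and 9.98% on viscoelastic gels of 2 and 20 kPa. For both genes the ranges of elastic and viscoelastic samples were apart. Within the beta sum, Tubb5 kept 53.4% to 57.2% as a group mean, Tubb2a held 15.2% and 13.7% on elastic and 17.9% and 17.3% on viscoelastic gels, and Tubb6 held 12.3% on 20-kPa elastic gels and 9.28% to 9.77% in the other groups. These shares follow from the gene values above and were given no test.

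**Figure D5:**
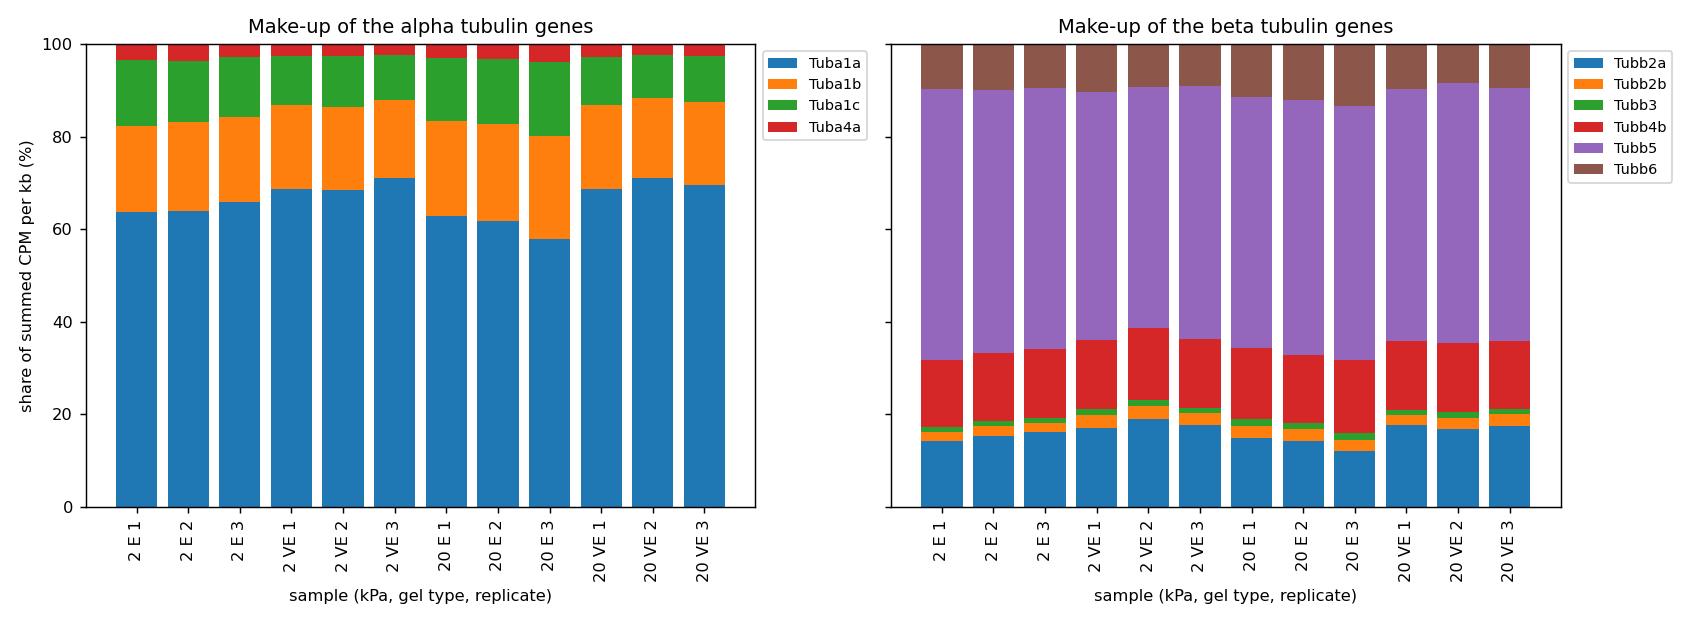
Stacked bars give each gene's share (percent, from 0 to 100) of the summed CPM per kb of the 4 alpha genes (left) and the 6 beta genes (right) in the 12 samples, ordered by stiffness in kPa and gel type (E elastic, VE viscoelastic). Tuba1a takes 57.8% to 65.8% of the alpha sum in elastic samples and 68.5% to 71.1% in viscoelastic samples.

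Of 10 other tubulin genes, 5 passed the filter. Tubg1, the gamma tubulin of the centrosome, fell on viscoelastic gels averaged over stiffness (log2 fold change −0.19), while its paralog Tubg2 rose (0.41, SE 0.09, edgeR adjusted p = 0.00227) from 2.34 to 3.18 CPM on elastic to 3.58 to 3.91 CPM on viscoelastic gels. Tube1, the epsilon tubulin of centrioles, fell by 0.37 on the log2 scale (adjusted p = 0.00817). Tuba8, an alpha gene of muscle and testis, had 1.66 to 2.59 CPM on 20-kPa elastic gels and 0.819 to 1.35 CPM elsewhere.

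Genes that fold tubulin were called higher more often than lower on viscoelastic gels, less so with an offset for gene length and GC content. Averaged over stiffness, 12 of 23 were higher and 1 was lower, with a median log2 fold change of 0.11 against 0.01 over all tested genes, of which 19.6% were called higher and 20.4% lower. The 12 were the prefoldin subunits Pfdn1, Pfdn2, Pfdn4, Pfdn5 and Pfdn6, which hand nascent chains to the chaperonin, the cofactors Tbca, Tbcb, Tbcc, Tbce and Tbcel, and Arl2 and Txndc9. Pfdn5 had the lowest p (0.44, SE 0.05, edgeR adjusted p = 2.52e-05), and the cofactor Tbcd fell (−0.18, adjusted p = 0.00278). No subunit of the chaperonin was called in this comparison, whereas Cct4, Cct5, Cct6a, Cct7, Cct8 and Tcp1 were higher at 20 than at 2 kPa averaged over gel types, together with 5 other genes of the list. Short genes as a class were higher on viscoelastic gels: the median log2 fold change was 0.13 in the 2866 shortest genes (median 1587 bases) and −0.10 in the 2865 longest (median 9791 bases). With the offset for length and GC content, 5 folding genes were higher and 2 lower on viscoelastic gels. Of all 14542 tested genes 2731 were then higher and 2520 lower, so the count of higher folding genes was close to the share over all genes. For 20 against 2 kPa averaged over gel types, 5 folding genes instead of 11 were higher with the offset. Of all tested genes 647 instead of 876 were then higher in that comparison. That count of 11 also fell to 5 without 2-kPa elastic replicate 2, 2-kPa viscoelastic replicate 3 or 20-kPa elastic replicate 3, and to 6 without 2-kPa elastic replicate 1 or 20-kPa viscoelastic replicate 1 or 3.

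Of 11 genes that nucleate microtubules, 8 were lower and 0 higher on viscoelastic gels averaged over stiffness, with a median of −0.18, where 20.4% of all tested genes were lower and 19.6% higher. With library totals alone or with the length and GC offset, 6 were lower, where 2309 and 2520 of all 14542 tested genes were lower. Pcnt, the scaffold of the pericentriolar material, fell by 0.39 on the log2 scale (edgeR adjusted p = 6.97e-05), and the gamma tubulin ring components Tubgcp2, Tubgcp3, Tubgcp4 and Tubgcp6 were lower. Of 22 genes whose proteins bind the plus end or the lattice, 10 were lower and 2 higher, with a median of −0.11, and with the offset 7 were lower and 4 higher. Map1a, a lattice-binding protein, fell most clearly (−0.43, adjusted p = 0.000499), and the plus-end protein Mapre3 was higher (0.16, adjusted p = 0.0332), a call lost in 5 of the 12 fits without 1 sample: without 2-kPa elastic replicate 2, 2-kPa viscoelastic replicate 3, 20-kPa elastic replicate 3 and 20-kPa viscoelastic replicate 1 or 3 (0.12 to 0.16, adjusted p of 0.0615 to 0.0895). Of 10 tested genes that depolymerise or sever microtubules, 4 were lower and 2 higher, the latter close to the share over all tested genes, led by the mitotic kinesin Kif2c (−0.41, adjusted p = 6.91e-05) and by the severing protein Katnal1 (0.13, adjusted p = 0.0215). The call of Katnal1 was lost without 2-kPa elastic replicate 3 and without 20-kPa elastic replicate 3 (0.12 each, adjusted p of 0.0514 and 0.0532). With library totals alone 2 of the depolymerising genes were lower, and with the offset 1 was higher. The higher counts rest on small changes: none of the binding genes was called higher without 2-kPa viscoelastic replicate 3, 20-kPa elastic replicate 3 or 20-kPa viscoelastic replicate 1 or 3, and at most 1 of the depolymerising genes without any sample other than 2-kPa viscoelastic replicate 1. Without 20-kPa elastic replicate 3 the counts in these 3 groups were 6 lower for nucleation, 9 lower and 0 higher for binding, and 3 lower and 0 higher for depolymerisation. Kif2c is itself a gene of dividing cells, and the sums of proliferation marker mRNAs given above were also lower on viscoelastic gels. The EdU labelling of the paper did not show less proliferation there. The part of proliferation in the fall of Kif2c was not tested.

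Among 7 genes of tubulin mRNA autoregulation, 0 were higher and 3 lower on viscoelastic gels averaged over stiffness, where 19.6% of all tested genes were higher and 20.4% lower. The 3 were subunits of the CCR4-NOT deadenylase: Cnot1, Cnot6 and Cnot6l. Cnot6 fell by 0.25 on the log2 scale (edgeR adjusted p = 0.00145). Of 20 tested enzymes that modify tubulin, 3 were higher and 2 lower, both below those shares, and 6 were higher and 2 lower with the length and GC offset. Atat1, which acetylates alpha tubulin, rose 1.27-fold (log2 fold change 0.34, SE 0.07, adjusted p = 0.00218), and Sirt2, which removes the mark, was also higher (0.18). Ttll4, which adds glutamate chains, fell by 0.31 (adjusted p = 0.000544).

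The label of fibroblasts was checked on 10 of their markers, which summed to 23871 to 29413 CPM. Endothelial, macrophage and muscle lists summed to at most 2.32, 9.01 and 1.54 CPM, and the melanocyte gene Tyr was at 0. The keratinocyte list summed to 14.3 to 23.5 CPM and the melanocyte list to 10.8 to 14.4 CPM. Schwann cell markers summed to 76.0 to 77.1 CPM on elastic and 54.4 to 64.2 CPM on viscoelastic gels of 2 kPa, and to 44.6 to 48.6 CPM on elastic and 73.4 to 94.1 CPM on viscoelastic gels of 20 kPa. Their sum was thus higher on the gel type where Tuba1a was higher at 20 kPa. The Schwann list did not move with its sum. The median log2 fold change of its 5 tested genes was 0.20 at 2 kPa and 0.10 at 20 kPa. The 6 chondrocyte markers, of which 5 passed the filter, summed to 4504 to 6215 CPM. Such a sum can be carried by 1 gene, and it is not broken down here. The sum of pericyte markers was lower on viscoelastic gels, at 322 to 334 CPM against 472 to 553 CPM at 2 kPa and 279 to 336 CPM against 372 to 506 CPM at 20 kPa. Of the 5 tested genes of this list, 2 were called lower at 2 kPa and 1 at 20 kPa. Over all tested genes 11.1% and 16.1% were lower. The median log2 fold change of the list was −0.54 at 2 kPa and −0.49 at 20 kPa. The part of these cell types in the tubulin results was not tested.

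As a description over the 12 samples, which share the 4 groups, members were set beside all other tested genes outside the tubulin family by Pearson's r of log2 CPM. Tuba1a was most like Snrnp27 (0.97), Mrpl52 (0.97) and Atpif1 (0.97). Nearest to Tuba1b were Cycs (0.96), Mmd (0.95) and Polr1e (0.95). Close to Tuba1c were Tbl3 (0.95) and Tspan9 (0.95), and nearest to Tubb4b were Tbl3 (0.95), Ddx27 (0.95) and Gfm1 (0.95). Tuba4a was nearest to Lif (0.96), Ctdp1 (0.93) and E2f8 (0.93), and Tubb5 to Snrpb (0.94), Bop1 (0.92) and Pcdh20 (0.91). Tubb6 was most like Lrrc59 (0.98), Gen1 (0.98) and the replication helicase subunit Mcm7 (0.98). Tubb2a was nearest to Pla2g5 (0.90), Bnip1 (0.89) and Ubb (0.89), whereas its near copy Tubb2b was nearest to Acot9 (0.94), Gzme (0.93) and Epb41l3 (0.91). The lowest of these values were those of Tubb3 with Cdkn2d (0.91), Ppp1r18 (0.89) and Cd151 (0.89), and of Tubb2a. Among the members, Tuba1c was close to Tubb4b (0.97), Tuba4a (0.93) and Tubb5 (0.92), while Tuba1a and Tubb6 ran opposite to each other (−0.53).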

How the data were processed

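RNA-seq counts of 12 samples were analysed. According to the study's methods and the labels, the authors trimmed reads with Trimmomatic, aligned them to mm10 with STAR and assigned them to GENCODE genes with featureCounts. They deposited raw counts without normalization, in 1 table of 33246 gene symbols. Poly-A RNA was primed with random hexamers. The annotation release, strand setting and handling of multi-mapping reads are not given in the sources used here. The other assays of the study were not analysed here.

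The quasi-likelihood test of edgeR 4.0.16 (R 4.3.3) was applied to the genes kept by filterByExpr (minimum count 10, minimum total 15), with TMM factors of 0.968 to 1.03 and a mean for each of the 4 groups, over all 12 samples. The biological coefficient of variation was 7.50%. A gene was called where its p, adjusted by Benjamini-Hochberg over 14542 genes, was under 0.05. CPM are TMM-normalized. Replicates of a group differed by 11.2 to 55.5 times the variance of counting alone. The script was tested on simulated data. Alternatives were DESeq2 1.42.0 size factors or its Wald test, library totals alone, every gene with a count, a replicate block, an offset for exonic length and GC content (mgcv 1.9.3, known for 98.5% of tested genes), only the 6 samples compared, and each sample left out. The study's own test was DESeq2.

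Symbols, coordinates, lengths and sequences came from GENCODE vM21 on GRCm38, with 27814 symbols matched directly, 2695 after punctuation, 489 by synonym and 2248 not matched. The members and gene lists were chosen with earlier results of these data known. All members are named. In each of 7 further lists the tested gene with the lowest p in each direction is named where called, for the mean effect of viscoelasticity and for the interaction, as are the 3 genes most like each member, apart from 1 gene that, like some tail sequences, is not reported here. Other genes of a list are named where they make up its count, after their values were seen.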

Additional observations from a re-analysis of the deposited data

Results flagged for a closer look

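The genes considered were the 10 isotypes and the tested genes of the other lists. These held 5 other tubulin, 23 folding, 7 autoregulation, 20 modifying, 11 nucleating, 22 binding and 10 depolymerising genes. Of all tested genes 7.56% were called for the interaction, a share that the genes considered did not exceed. The effect of viscoelasticity differed between 20 and 2 kPa for 7 of the genes considered, by the interaction in edgeR's quasi-likelihood model with Benjamini-Hochberg adjustment over all tested genes. Among the isotypes these were Tubb2b (−0.53 on the log2 scale, adjusted p = 0.00269) and Tuba1a (0.35, adjusted p = 0.0316). Among the other genes they were Tuba8 (−1.23, adjusted p = 0.0331), the prefoldin subunit Pfdn5 (0.37, adjusted p = 0.0335), the microtubule-binding Mtus1 (0.47, adjusted p = 0.0159) and Map1b (−0.57, adjusted p = 0.0205), and the kinesin Kif2c (−0.42, adjusted p = 0.0295). Tubb2b and Mtus1 stayed called without any 1 of the 12 samples. Without 1 sample the call was lost in 8 of 12 fits for Tuba1a, 7 for Tuba8, 9 for Pfdn5, 2 for Map1b and 6 for Kif2c. Map1b had 66.8 to 87.6 CPM on 20-kPa elastic gels and 50.01 to 51.6 CPM on 20-kPa viscoelastic gels, and Mtus1 had 32.2 to 34.1 and 39.9 to 44.9 CPM there. Tuba8 rests on 31 to 105 counts per sample.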

How the results depend on the processing

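The number of isotypes called on viscoelastic against elastic gels was 4 at 2 kPa, 6 at 20 kPa and 6 for their mean, and leaving out 1 sample gave 2 to 4, 3 to 6 and 6 to 7. The lowest were 2 without 2-kPa elastic replicate 1 and 3 without 20-kPa elastic replicate 3. Between stiffnesses 3 were called on elastic gels (1 to 4 without 1 sample, 1 without 20-kPa elastic replicate 3). On viscoelastic gels 2 were called, but 1 with the replicate block, 0 with the block and the length and GC offset, 0 with only the 6 samples compared, and 0 to 2 without 1 sample, with 0 or 1 without 2-kPa viscoelastic replicate 1 or 3 or any 20-kPa viscoelastic replicate. For the mean stiffness effect 3 were called, 5 with every gene with a count, 5 with DESeq2's Wald test and 2 to 4 without 1 sample. For the interaction 2 were called, 1 with the replicate block and 1 to 2 without 1 sample. Calls over all tested genes fell in the same settings. For stiffness on viscoelastic gels they went from 230 higher and 101 lower to 12 and 26 with only the 6 samples compared. Without 20-kPa viscoelastic replicate 3 they were 5 and 4. For gel type at 2 kPa they went from 1275 higher and 1617 lower to 663 and 882 without 2-kPa elastic replicate 1. The cause of these changes was not tested. The replicate numbers did not pair the samples: correlations of deviations between same-numbered samples ran from −0.160 to 0.308 and were over 0.1 in every pair of no comparison. With the block, Tuba1a between stiffnesses on viscoelastic gels (adjusted p = 0.0546) and in the interaction (adjusted p = 0.0605) and Pfdn5 in the interaction (adjusted p = 0.0564) were lost. Values that changed sign were uncalled ones near 0. With the length and GC offset, alone and with the block, these were Tubb2a at 2 kPa (−0.0352 and −0.0354), Tubb2b in the mean viscoelastic effect (−0.0906 and −0.0900), Tubb2a in the mean stiffness effect (−0.0160 and −0.0169), Tubb5 on elastic gels (0.00917 and 0.0119) and Tubb4b in the interaction (−0.0243 and −0.0258), and, with the offset alone, Tubb3 at 2 kPa (−0.0034). Tubb5 on elastic gels was also 0.0076 with DESeq2 size factors, 0.0077 with the Wald test, 0.0046 with library totals and 9.8e-05 with every gene with a count, Tubb4b in the interaction −0.011 with DESeq2 size factors, −0.011 with the Wald test and −0.0032 with every gene with a count, and Tuba1b at 20 kPa 0.017 with library totals. Leaving out 1 sample turned uncalled values within −0.0244 to 0.0800 (Tubb2a) and −0.0767 to 0.18 (Tubb3) at 2 kPa, −0.0571 to 0.0188 (Tuba1b) at 20 kPa, −0.0757 to 0.0118 (Tuba1a), −0.0388 to 0.18 (Tuba4a) and −0.0488 to 0.0819 (Tubb5) for stiffness on elastic gels, −0.13 to 0.0209 (Tubb3) on viscoelastic gels, −0.0104 to 0.0317 (Tubb2b, mean viscoelastic effect), −0.0232 to 0.0391 (Tubb2a, mean stiffness effect), and −0.0229 to 0.15 (Tuba1c) and −0.0425 to 0.0489 (Tubb4b) for the interaction. Depth limits Tubb3 (305 to 554 counts) and Tuba4a (546 to 951 counts) more than the other members.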
